A study of Mus musculus with 19 samples.

Results

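Sodium, calcium and HCN channel subunits were taken from 2 gene tables of mouse hippocampal slices by symbol: Scn followed by a number and a or b, Cacna1, Cacna2d and Cacnb with their suffixes, Hcn with a number, and Nalcn. This gave 36 genes of 20436. They fall into 9 sodium channel alpha subunits, 4 sodium channel beta subunits, 10 pore-forming calcium channel subunits (4 Cav1, 3 Cav2, 3 Cav3), 4 alpha2delta and 4 Cav beta subunits, 4 HCN channels and Nalcn. The Nav1.2 gene is listed in the tables as Scn2a1, which the symbol rule does not match, so it is no member and its values are given only for scale.

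The slices came from wild-type male mice of 28 to 42 days (P28-42), and slices of several animals were pooled for each replicate. Basal slices received vehicle (ACSF) for 5 min, and treated slices received 100 µM DHPG, an agonist of group I metabotropic glutamate receptors, for 5 min. All slices, basal ones included, then received cycloheximide at 100 µg/ml, which halts ribosomes on mRNA. Each was measured by RNA-Seq and by ribosome profiling, in which ribosome-protected fragments (RPF) of 80S monosomes are sequenced, giving 4 basal RNA, 5 DHPG RNA, 5 basal RPF and 5 DHPG RPF libraries.

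RNA libraries held 4870813 to 7793244 counts and RPF libraries 5692064 to 22092434. Markers of the labelled tissue were present, with summed levels of 3442 to 5893 CPM (counts scaled by library size with TMM) for 6 pyramidal neuron genes and 206 to 298 CPM for 4 dentate granule cell genes in basal RNA. Markers of other cell types were present too. The sum of 6 oligodendrocyte genes ran from 2462 to 5282 CPM in basal RNA, lowest in replicate 4, and the sum of 3 choroid plexus genes stayed at or below 1.36 CPM in RNA and 2.33 CPM in RPF. In whole slices, fewer cells of a type and less RNA per cell cannot be told apart.

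Voltage-gated sodium channels carry the rising phase of the action potential. Their large alpha subunits form the pore, and the small single-pass beta subunits shape gating and surface placement. Calcium channels are built on a Cacna1 pore, with Cav1 L-type, Cav2 presynaptic and R-type, and Cav3 low-threshold T-type pores. Cytoplasmic Cav beta and extracellular alpha2delta subunits help high-voltage-activated pores reach the membrane. HCN channels open on hyperpolarization and damp dendritic inputs of pyramidal neurons, and NALCN carries a sodium leak that sets resting excitability.

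The start of the coding sequence is shown for the 8 subunits with the highest and lowest basal footprint to RNA ratio described further on. Footprints were not counted at either end of the coding sequence, so these bases lie outside the counted stretch. Whether they bear on the ratio was not tested. Sequences are from GENCODE transcripts on mm10, 5′ to 3′, with 9 bases before and 3 after the start codon, which is in capitals. The 4 subunits with the highest ratio come first.
Scn2b (chr9:45117782-45130070, + strand): tctctgaaaATGcac
Scn4b (chr9:45138395-45154152, + strand): aacaggaccATGtcc
Scn3b (chr9:40269217-40291618, + strand): cgagaaaagATGcct
Cacnb4 (chr2:52428320-52676831, - strand): ctctgaaccATGtcg
Hcn2 (chr10:79716634-79736108, + strand): cgcctcgccATGgat
Cacna1g (chr11:94408391-94474198, - strand): ggccagaggATGgat
Cacna1i (chr15:80287238-80398279, + strand): cacgctgacATGgct
Cacna1d (chr14:30039939-30491455, - strand): tgttcgtggATGatg

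A purine 3 bases before the start codon was present in 7 of these 8, Cacna1d being the exception with T, and a G directly after it in 3 of 8 (Hcn2, Cacna1g and Cacna1i). Over the 32 members with a complete start the counts were 27 and 21, beside 84.6% and 49.9% of all 19044 genes with a complete start. Scn2b and Scn4b are neighbours on the same strand with 8324 bases between them. Scn3a, Scn2a1, Scn1a, Scn9a and Scn7a lie in 1 cluster at chr2:65457118-66784914, and Scn10a and Scn11a lie together on chromosome 9. The sodium channel alpha genes are close enough in sequence to share stretches of 30 nt, about a footprint. Of the stretches in the coding sequence, 20.8% in Scn3a, 14.2% in Scn1a and 12.7% in Scn9a also occurred in another gene, so the counts of these 3 are less certain than those of Scn8a (1.41%) or of the beta subunits (0%).

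The first question was how high the footprint level of each subunit was in basal slices. Levels are RPF CPM per kb of coding sequence less 30 nt at each end, as mean ± SD over 5 basal libraries. The authors trimmed coding sequences in the same way for counting, but the lengths used here are of GENCODE transcripts. The median of the 13135 genes tested was 17.4 CPM per kb. Of the 36 members, 31 passed the filter on low counts in both kinds of library. The other 5 were Cacna1f (retinal L-type), Cacna1s (skeletal muscle L-type), Scn4a (skeletal muscle), Scn10a and Scn11a (sensory neuron), with at most 9, 8, 5, 5 and 3 counts in any library.

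**Figure D1:**
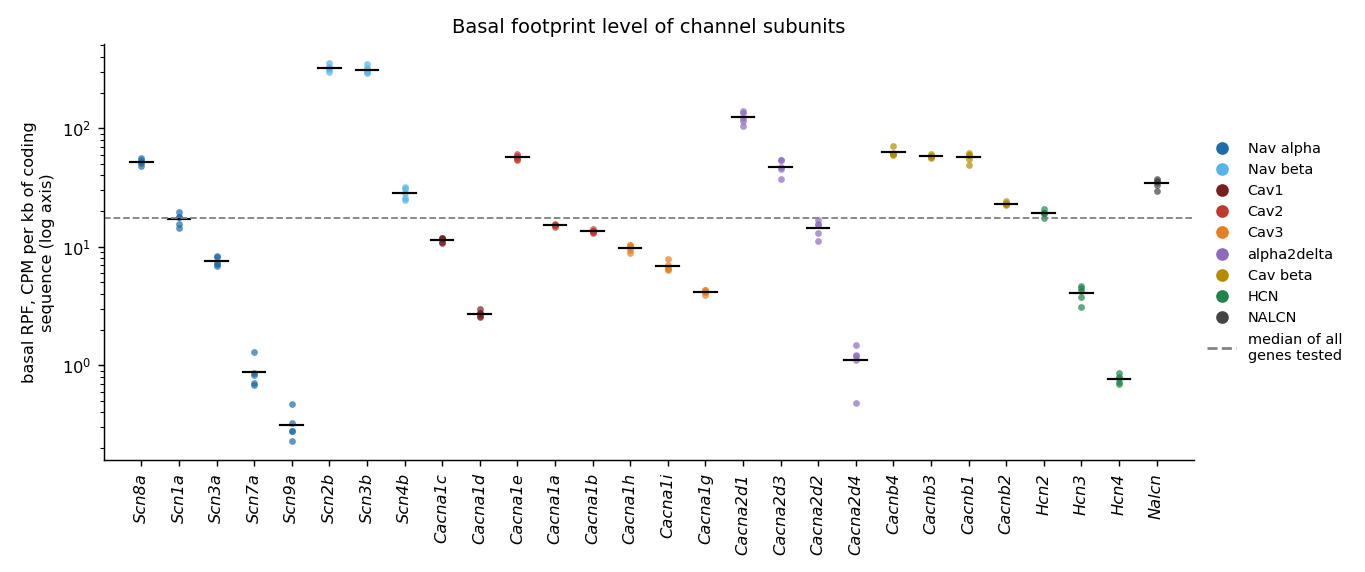
Basal RPF level (CPM per kb of coding sequence, log axis) of 28 members that passed the filter on low counts, grouped by role. Points are the 5 basal libraries, bars their mean, and the dashed line the median of all genes tested (17.4). Scn2b and Scn3b sit highest near 300, and Scn9a, Hcn4 and Scn7a lowest below 1.

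Sodium channel beta subunits were among the highest in level per kb. Scn2b, which is disulfide-linked to the alpha subunit, was at 325.5 ± 20.8 CPM per kb (SD, n = 5), with 316, 356, 331, 324 and 300 in replicates 1 to 5. Scn3b was at 313 ± 22.2. Their ranges overlapped, although Scn2b exceeded Scn3b in 5 of 5 libraries. Scn4b, best known from Purkinje and fast-spiking cells, was far lower at 28.3 ± 3.04.

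Among the sodium channel alpha members, Scn8a (Nav1.6, the main channel of the mature axon initial segment) was highest at 52.2 ± 2.99 CPM per kb, with 52.1, 56.1, 53.7, 51.1 and 48.1 in replicates 1 to 5. Scn1a (Nav1.1, prominent in interneurons) followed at 17.1 ± 2.16, with no overlap with Scn8a, and Scn3a (Nav1.3, largely embryonic) at 7.58 ± 0.647. Scn2a1, outside the rule, was at 69.5 ± 8.80 and above Scn8a in 5 of 5 libraries. Scn7a (0.874 ± 0.248) and Scn9a (0.316 ± 0.0948), known mainly from sodium-sensing glia and peripheral neurons, were both below 1.

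Among calcium channel pores, Cacna1e (Cav2.3, R-type) led at 57.3 ± 2.60 CPM per kb, with 58.5, 60.9, 57.4, 55.1 and 54.5 in replicates 1 to 5. It made up 66.5% ± 0.837 (SD, n = 5) of the summed Cav2 footprints per kb. Cacna1a (P/Q-type) was at 15.3 ± 0.281 and Cacna1b (N-type) at 13.6 ± 0.376, and their ranges did not overlap. Of the L-type pores, Cacna1c (Cav1.2) was at 11.4 ± 0.514, with 11.04, 11.9, 11.8, 11.6 and 10.7 by replicate. It held 80.1% ± 0.525 of the Cav1 sum, against 19.1% ± 0.426 for Cacna1d (2.73 ± 0.168). The T-type pores had means below that of Cacna1c and above that of Cacna1d. They were at 9.79 ± 0.637 for Cacna1h, 6.88 ± 0.613 for Cacna1i and 4.16 ± 0.178 for Cacna1g, without overlap between neighbours. Cacna1h read 8.91, 10.3, 9.95, 10.4 and 9.36 in replicates 1 to 5.

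Most auxiliary subunits were above most calcium channel pores per kb, Cacna2d4 being below all 8 tested. Cacna2d1, the main gabapentin-binding subunit, was at 124 ± 14.5 CPM per kb, ranging from 105 in replicate 4 to 141 in replicate 2, with 122, 135 and 115 in replicates 1, 3 and 5. Cacna2d3 (47.4 ± 6.83), Cacna2d2 (14.5 ± 2.29) and Cacna2d4 (1.10 ± 0.371) followed. Cacnb4, the beta subunit mutated in lethargic mice, was at 62.8 ± 4.36 (62.4, 70.4, 59.9, 61.0 and 60.2 by replicate). Cacnb3 was at 58.2 ± 1.67 and Cacnb1 at 56.9 ± 5.27, so that these 3 overlapped, whereas Cacnb2 was lower at 23.2 ± 0.625 without overlap.

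Of the HCN channels, Hcn2, a broadly expressed subunit, was at 19.3 ± 1.19 CPM per kb. Hcn3 (4.04 ± 0.608) and Hcn4, the cardiac pacemaker subunit (0.769 ± 0.0599), were lower, with no overlap between neighbours in this order. Nalcn was at 34.2 ± 3.05, with 35.2, 37.5, 35.9, 33.0 and 29.6 by replicate.

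Levels in RNA were ordered otherwise than levels in footprints. Per kb of transcript, basal RNA was 98.5 ± 25.5 CPM for Hcn2, against 14.2 ± 1.13 for Scn2b and 24.6 ± 1.05 for Scn3b (SD, n = 4), although both beta subunits were far above Hcn2 in footprints per kb.

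The second question was how the footprint to RNA ratio of each subunit compared with that of other genes. The ratio was fitted with edgeR's quasi-likelihood test in the 4 replicates with both basal libraries. It was corrected for GENCODE lengths of the stretches counted, and centred so that the median of 12619 genes was 0 on the log2 scale. At an adjusted p under 0.05, 27 of 31 members differed from 0, 6 above and 21 below, beside 78.3% of all genes tested (39.3% above and 39% below). The share called in either direction was thus close to that of all genes, and the split between directions was not. The median log2 ratio of the members was -1.05.

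**Figure D2:**
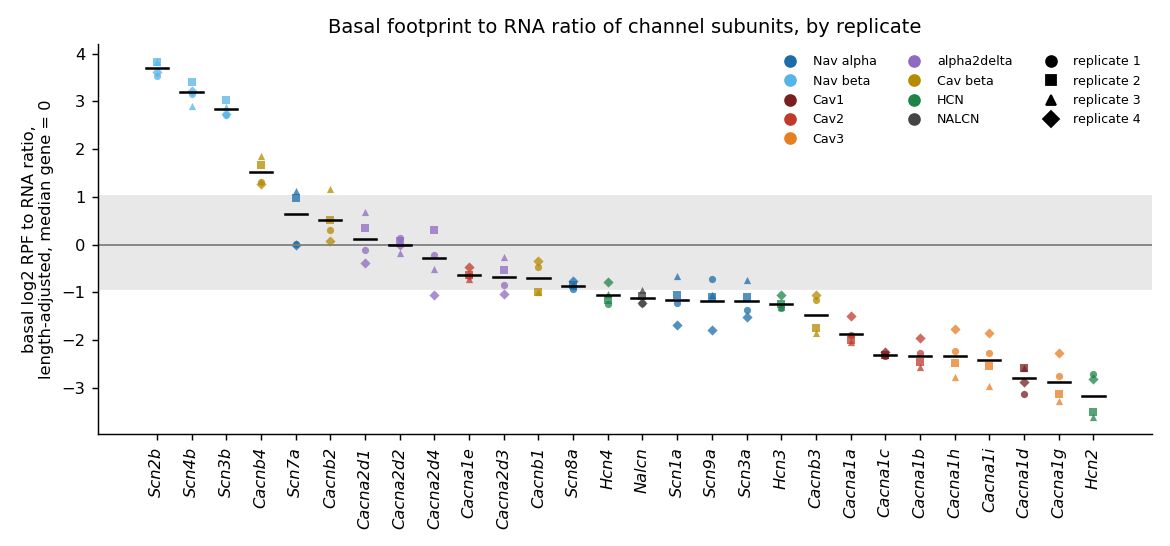
Basal log2 RPF to RNA ratio (length-adjusted, median gene at 0) of 28 members, ordered by the fitted ratio (bars), with points for replicates 1 to 4. Grey marks the range between the quartiles of all genes, from -0.93 to 1.02. Scn2b, Scn4b, Scn3b and Cacnb4 lie above it. Below it lie every calcium channel pore drawn but Cacna1e, and Cacnb3, Hcn2, Hcn3, Hcn4, Nalcn, Scn1a, Scn3a and Scn9a.

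The 3 highest ratios belonged to beta subunits. Scn2b had a log2 ratio of 3.69 (SE 0.13, adjusted p = 1.37e-07), and its replicates read 3.52, 3.83, 3.82 and 3.61. Its RNA was at 71.6, 65.3, 59.4 and 69.0 CPM in basal replicates 1 to 4, and its RPF at 184.7, 208.5, 193.9 and 189.3 CPM. Scn4b had a log2 ratio of 3.19 (SE 0.15) on little RNA, 9.80, 7.83, 10.03 and 7.48 CPM, and 19.9, 19.1, 17.6 and 16.1 CPM of RPF. Scn3b was at 2.84 (SE 0.12), from RNA of 104, 99.7, 97.7 and 107 CPM and RPF of 170.7, 203.6, 187 and 181 CPM. Each of these 3 stood above the upper quartile of all genes in every replicate.

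Cacnb4 followed with a log2 ratio of 1.52 (SE 0.14, adjusted p = 1.23e-05), from RNA of 115, 102.6, 74.2 and 117 CPM and RPF of 93.4, 105.4, 89.6 and 91.3 CPM. This value rested on the length correction, since its chosen transcript has a 3′ UTR of 6167 nt. Without that correction Cacnb4 was at 0.08 (adjusted p = 0.620). An antisense transcript, A430018G15Rik, overlaps 17.4% of its mRNA, and reads of the 2 cannot be told apart in RNA. The order of the 3 sodium channel beta subunits among themselves did not rest on the length correction. Scn2b, Scn4b and Scn3b stayed above 0 without it, at 1.72, 1.22 and 1.03, all past the test's threshold. That these 3 were the highest did rest on it, since Scn7a was then at 1.09 (adjusted p = 0.00652), above Scn3b.

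The lowest ratio was that of Hcn2, at -3.18 (SE 0.18, adjusted p = 7.96e-07). Its RNA was at 247, 361, 406 and 245 CPM in basal replicates 1 to 4 and its RPF at 52.8, 44.3, 48.3 and 48.9 CPM, which gave -2.72, -3.51, -3.61 and -2.82. Replicates 2 and 3 were high in RNA and not in RPF. The next were the pores Cacna1g at -2.89 (SE 0.18), Cacna1d at -2.80 (SE 0.15) and Cacna1i at -2.42 (SE 0.18). Cacna1g RNA was at 138, 172, 184 and 99.2 CPM against 30.6, 29.3, 29.2 and 30.7 CPM of RPF. Cacna1d RNA was at 85.1, 67.0, 59.4 and 74.3 CPM against 16.9, 19.4, 17.8 and 17.7 CPM of RPF. Cacna1i RNA was at 175, 253, 269 and 140 CPM against 43.2, 51.6, 42.4 and 46.0 CPM of RPF. For each of these 4 genes, RNA exceeded RPF in CPM in all 4 replicates. Without the length correction they stayed low, at -2.50, -2.11, -1.80 and -1.98. The chosen Cacna1d and Cacna1c transcripts have almost no annotated 3′ UTR (9 and 3 nt), and with the longest protein-coding transcript in its place Cacna1c moved from -2.31 to -1.42 and Cacna1d to -2.49.

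All 8 tested pores of the Cav1, Cav2 and Cav3 classes were below 0 and past the threshold, from -0.63 for Cacna1e to -2.89 for Cacna1g. Of 6 tested sodium channel alpha members 5 were below 0 and called, Scn8a at -0.86 (SE 0.11) among them, and Scn7a was at 0.63 without passing the test (adjusted p = 0.0616). Nalcn was at -1.12 (SE 0.11). Of the alpha2delta subunits, the main length choice left Cacna2d1 at 0.12 (SE 0.18), Cacna2d2 at 0.00 (SE 0.12) and Cacna2d4 at -0.29 (SE 0.24) not past the threshold, and Cacna2d3 was called at -0.67 (SE 0.15). Cacna2d1 ran from -0.39 in replicate 4 to 0.68 in replicate 3. Under the other length choices it was past the threshold and above 0, at 0.87 without the length correction (adjusted p = 0.00243), 0.95 with the longest protein-coding transcript (adjusted p = 0.00112) and 0.49 with the mean transcript length (adjusted p = 0.0333). Cacna2d2 was past it only without the correction, at 0.32 (adjusted p = 0.0353).

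The ratio was lower at greater coding length over all genes, and these pores are long. Spearman's rho between coding length and ratio was -0.55 across 12619 genes and -0.68 across the 31 members, given as a description since genes of 1 set of libraries are not independent replicates and the length enters the correction itself. In the class of 5000 nt or more, 15 members had a median log2 ratio of -1.87 against -1.46 for all 601 genes, and 8 of 15 were below the class median. Below 1000 nt, the 4 beta subunits had a median of 3.01 against 1.12 for 3650 genes. Members whose values are given lay on both sides of the median of the class of 5000 nt or more, and not all of the 8 below it are named. Every tested Cav pore but Cacna1e (-0.63) was below it, from -1.87 for Cacna1a downward. Above it were Nalcn (-1.12), Scn8a (-0.86), Scn1a (-1.16), Scn3a (-1.19), Scn9a (-1.18) and Scn7a (0.63). The part of coding length in these ratios was not tested.

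**Figure D3:**
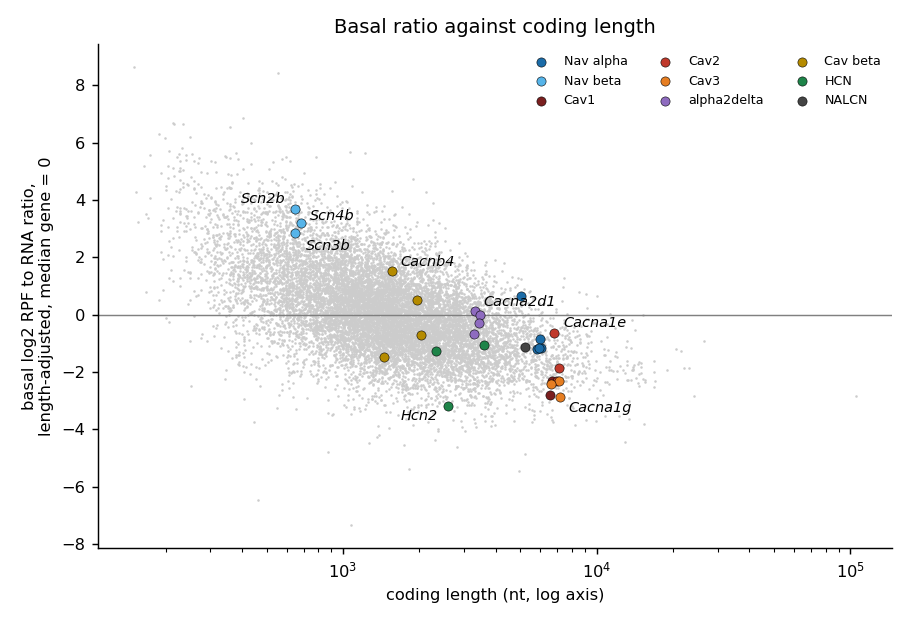
Basal log2 RPF to RNA ratio (length-adjusted, median gene at 0) against coding length (nt, log axis). Genes that are not members by symbol are in grey, and 28 members are coloured by role. The ratio declines with length in all genes. Scn2b, Scn4b and Scn3b sit in the upper part and Hcn2 near the lower edge of genes of their length.

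The third question was whether 5 min of DHPG changed any subunit. In RNA, no member passed an adjusted p under 0.01 in edgeR's quasi-likelihood test with the replicate number as a block, beside 0.00773% of 12935 genes (1 gene). At an unadjusted p under 0.05, 3 members were higher and 0 lower, beside 5.28% and 2.81% of all genes (8.09% in either direction). Leaving out replicate 4 gave 0 in either direction, leaving out replicate 1 gave 1, and leaving out replicate 2 gave 5. In every pair, 3 members were higher (Cacna1a, Cacna1g and Cacna1h) and 0 lower, beside 8.67% and 6.97% of all genes. DESeq2 with the same block also called 0 members, with 0 at an unadjusted p under 0.05. The fitted change was above 0 in 18 of 31 members, beside 52.1% of all genes. The median change of the 31 members was 0.03 on the log2 scale, beside 0.01 for all genes, and within pairs 1 to 4 it was -0.01, -0.04, 0.06 and 0.16. The basal and DHPG ranges of every tested member overlapped in RNA and in RPF. The share of all genes with such overlap was not computed, so this is only a description.

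**Figure D4:**
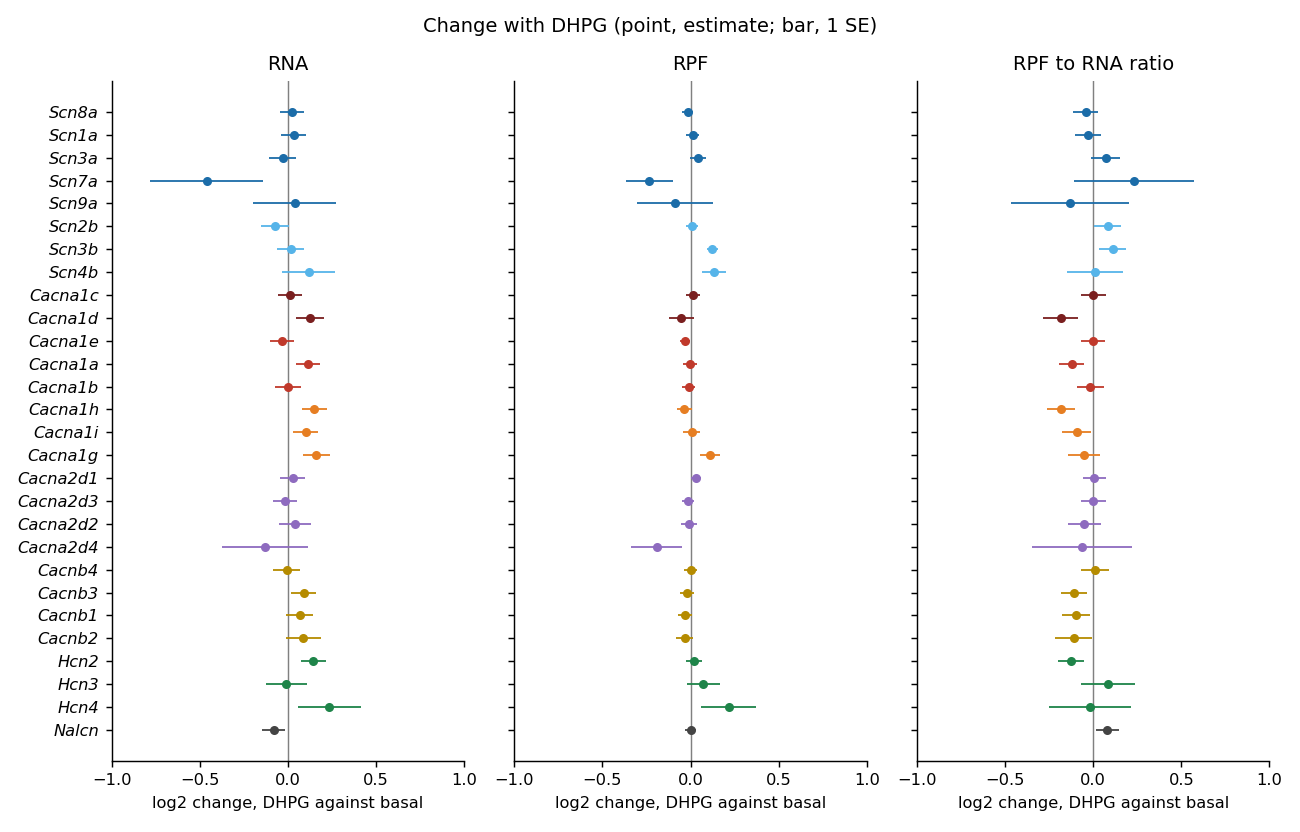
Log2 change with DHPG against basal for RNA, RPF and the RPF to RNA ratio of 28 members, in role order. Points are fitted estimates and bars 1 SE. Nearly all estimates lie within 0.2 of 0, and the widest bars belong to the low genes Scn7a, Scn9a, Cacna2d4 and Hcn4.

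The 3 members with the smallest RNA p-values were Cacna1g, Hcn2 and Cacna1h. Cacna1g RNA was at 138, 172, 184 and 99.2 CPM in basal replicates 1 to 4 and at 139.5, 186, 191 and 138.5 CPM in their DHPG partners, with 111 CPM in DHPG replicate 5, which has no basal partner and does not enter the fitted change. Its log2 change was 0.16 (SE 0.08, adjusted p = 0.601), higher in 4 of 4 pairs but mostly from pair 4. Hcn2 RNA was at 247, 361, 406 and 245 CPM in basal slices and 292, 359, 428 and 296 CPM with DHPG, with 282 CPM in replicate 5. Its change was 0.15 (SE 0.07, adjusted p = 0.603), higher in 3 of 4 pairs. Cacna1h RNA was at 194, 269, 304.5 and 163 CPM in basal slices and 211.5, 287, 304.8 and 212 CPM with DHPG, with 202.5 CPM in replicate 5. Its change was 0.15 (SE 0.07, adjusted p = 0.606), higher in 4 of 4 pairs. Without replicate 4 the changes were 0.06, 0.10 and 0.07.

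Several values moved beside these 3. All are GC-rich in the coding sequence, at 58.8% for Cacna1g, 63.8% for Hcn2 and 60.0% for Cacna1h, against a median of 53.3% over 12858 genes. Across those genes Spearman's rho between GC content and the fitted RNA change was 0.31, and within pairs 1 to 4 it was 0.36, -0.05, -0.03 and 0.36. A list of 10 thalamus-enriched genes was chosen with earlier results of these data known, so its direction is no independent observation. Of these, 8 were tested in RNA and 8 were higher with DHPG, 1 of them called (Prkcd). Their sum was 150 to 197 CPM in basal RNA and 190 to 256 CPM in DHPG RNA, and in each of pairs 1 to 4 the DHPG library was the higher one. All 6 oligodendrocyte genes were higher too, none called, with sums of 2462 to 5282 and 2812 to 6034 CPM. The part of these in the results was not tested.

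**Figure D5:**
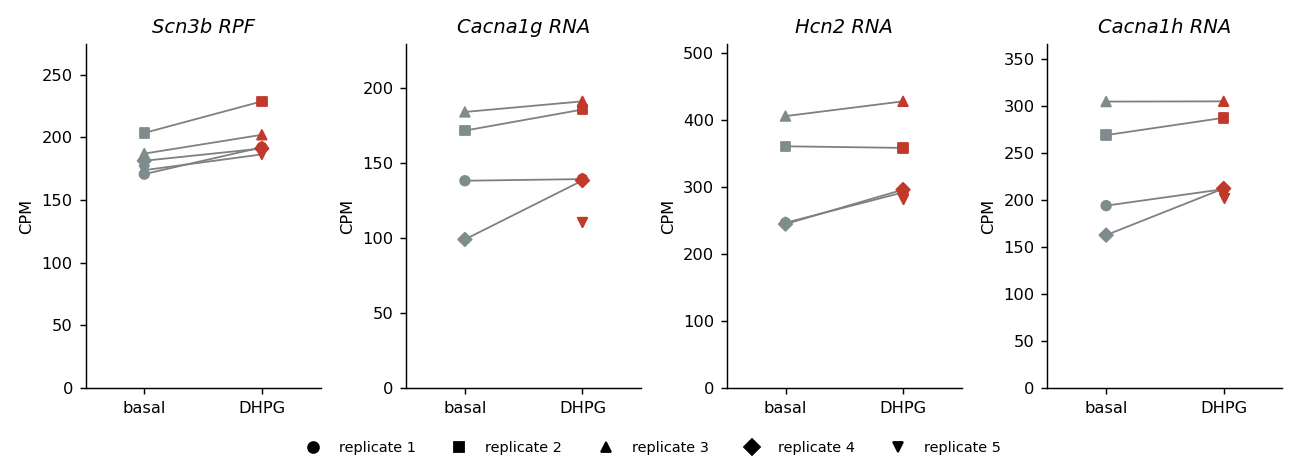
CPM in each library for Scn3b RPF and for Cacna1g, Hcn2 and Cacna1h RNA, basal (grey) and DHPG (red), with lines joining libraries of the same replicate number. Scn3b is higher with DHPG in 5 of 5 pairs by a small amount. Cacna1g and Cacna1h RNA differ most in replicate 4, and replicate 5 has no basal RNA.

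In RPF, no member passed an adjusted p under 0.05, beside 0.273% of 13208 genes (36 genes, and 0 without the replicate block). At an unadjusted p under 0.05, 2 members were higher and 0 lower, beside 6.55% and 4.29% of all genes (10.8% in either direction). Leaving out replicate 5 gave 5 in either direction and leaving out replicate 3 gave 1. In every pair, 2 members were higher and 0 lower, beside 5.16% and 4.72% of all genes. DESeq2 with the block called 0 members, with 1 at an unadjusted p under 0.05. The fitted change was above 0 in 16 of 31 members, beside 51.4% of all genes. The median change was 0.0006, beside 0.0031 for all genes, and within pairs 1 to 5 it was -0.01, 0.08, 0.01, 0.01 and -0.03.

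Scn3b came closest. Its RPF was at 170.7, 203.6, 187, 181 and 174 CPM in basal replicates 1 to 5 and at 192, 229, 202, 191 and 186.5 CPM in their DHPG partners. The DHPG library was higher in 5 of 5 pairs, although the ranges overlapped. The log2 change was 0.12 (SE 0.03, adjusted p = 0.0685), from 183 ± 13.0 to 200.1 ± 17.0 CPM (SD, n = 5). With no filter on low counts it passed the threshold (0.12, adjusted p = 0.0375), and likewise with ComBat followed by DESeq2 (0.10, adjusted p = 0.0150). Leaving out each replicate gave adjusted p from 0.0633 to 0.385, and over all alternatives it ran from 0.0150 to 0.99997, the latter without the block. Scn3b RNA had a log2 change of 0.02 (SE 0.08), so the change of its ratio was 0.11 (SE 0.08, adjusted p = 0.830).

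Of other beta subunits, Scn2b was at 0.01 (SE 0.03) and Scn4b at 0.14 (SE 0.07, adjusted p = 0.463). In RPF the thalamus-enriched sum was 201 to 251 CPM in basal and 206 to 326 CPM in DHPG libraries, with 4 of 10 genes called higher, and the somatostatin gene Sst, 1 of 7 interneuron genes, was called higher by 0.20 on the log2 scale. The part of these in the beta subunit values was not tested.

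The next smallest RPF p-value was that of Cacna1g. Cacna1g RPF was at 30.6, 29.3, 29.2, 30.7 and 27.6 CPM in basal and 34.2, 35.7, 31.3, 29.97 and 27.5 CPM in DHPG replicates 1 to 5, a log2 change of 0.11 (SE 0.06, adjusted p = 0.459), higher in 3 of 5 pairs.

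Leading subunits of several roles stayed within narrow margins in RPF. Scn8a was at 308, 331, 317, 301 and 284 CPM in basal and 299, 345, 328, 290.3 and 263 CPM in DHPG replicates 1 to 5, a change of -0.02 (SE 0.03). Cacna1e was at 395, 412, 388, 372.5 and 369 CPM and at 373, 430.4, 370.1, 372 and 348.5 CPM, a change of -0.03 (SE 0.03). Cacna2d1 was at 397, 459, 437, 342 and 374 CPM and at 422, 467, 465, 339 and 367 CPM, a change of 0.03 (SE 0.03). For these 3 the spread between replicates exceeded the difference between basal and DHPG libraries of the same replicate.

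Nalcn RPF was at 181, 193, 185, 170.3 and 153 CPM in basal and 182, 202, 186, 158 and 155 CPM in DHPG replicates 1 to 5, a change of 0.00 (SE 0.03). Cacna1c was at 73.0, 78.8, 78.0, 76.7 and 70.9 CPM and at 72.5, 83.1, 76.6, 78.0 and 70.8 CPM, a change of 0.01 (SE 0.04). The basal and DHPG ranges of both overlapped. With DHPG, Cacnb4 was at 92.6, 100.7, 94.2, 93.3 and 88.6 CPM (0.00, SE 0.04) and Scn2b at 186, 224, 182, 192 and 177 CPM (0.01, SE 0.03).

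For the change of the RPF to RNA ratio with DHPG, fitted in 1 model over all 19 libraries, no member and no gene passed an adjusted p under 0.05 (0% of 12691 genes). At an unadjusted p under 0.05, 1 member was lower and 0 higher, beside 3.65% and 3.17% of all genes (6.82% in either direction). The fitted change was above 0 in 12 of 31 members, beside 49.5% of all genes. The smallest p-values were those of Cacna1h, at -0.18 (SE 0.08, adjusted p = 0.704), Cacna1d, at -0.19 (SE 0.10, adjusted p = 0.761), and Cacna1a, at -0.12 (SE 0.07, adjusted p = 0.777). Cacna1h RPF was at 62.6, 72.5, 69.8, 72.8 and 65.7 CPM in basal and 61.1, 81.8, 63.5, 71.4 and 58.4 CPM in DHPG replicates 1 to 5, so its ratio followed the RNA difference given above. Cacna1d RNA was at 85.4, 64.9, 71.8, 88.9 and 73.3 CPM and its RPF at 12.5, 20.6, 17.4, 15.7 and 16.8 CPM in DHPG replicates 1 to 5. Cacna1a RNA was at 257, 275, 278 and 185 CPM in basal and 284, 279.9, 287, 219.5 and 193 CPM in DHPG libraries, higher in 4 of 4 pairs, and its fitted RPF change was -0.002 (SE 0.04). Without replicate 4 these 3 ratio changes were -0.11, -0.11 and -0.08, and without replicate 2 they were -0.27, -0.28 and -0.20, with 6 members at an unadjusted p under 0.05 in either direction.

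Proteins known to bind or regulate these channels were read from lists for sodium channels (ankyrins, FGF homologous factors, contactins), calcium channels (RGK GTPases, Stac and Rim proteins, Akap5), HCN channels and NALCN. Of 30 such genes in the tables, 27 were tested, and 0 were called in RNA or in RPF. At an unadjusted p under 0.05, 4 were higher and 0 lower in RNA, beside 5.28% and 2.81% of all genes, and 3 were higher and 3 lower in RPF, beside 6.55% and 4.29%. In RNA the smallest p-values were those of Stac2, an adaptor of L-type channels, at 0.24 (SE 0.10, adjusted p = 0.549), and Gem, an RGK GTPase that inhibits calcium channels, at 0.38 (SE 0.17, adjusted p = 0.575). In RPF they were Akap5, which anchors kinases and calcineurin at L-type channels, at -0.12 (SE 0.04, adjusted p = 0.236, lower in 5 of 5 pairs), and Cntn2, an axonal adhesion protein, at 0.11 (SE 0.04, adjusted p = 0.258).

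In the basal ratio, 23 of the 27 partner genes were called, 10 above and 13 below, beside 78.3% of all genes (39.3% above and 39% below). The FGF homologous factor Fgf12 was at 3.74 (SE 0.14), close to Scn2b, and Akap5 at 3.32 (SE 0.29). The 3 NALCN partners were all below 0, with a median of -2.33.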

How the data were processed

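RNA-Seq and ribosome profiling of wild-type hippocampal slices were analysed in 19 libraries. The deposited values are expected counts per gene, in 2 tables of whole numbers. The authors trimmed reads with cutadapt, removed rRNA and tRNA reads with Bowtie2, aligned to mm10 with TopHat2, removed duplicates by molecular identifier and counted with RSEM, whole transcripts for RNA and coding sequences without 30 nt at each end for RPF. Strand use in counting was not given in the sources used here, so antisense overlaps cannot be told apart. Another 12 columns belong to no sample here and were not used.

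Counts were tested as deposited with edgeR 4.0.16 (R 4.3.3; filterByExpr, TMM, robust quasi-likelihood) over all genes with Benjamini-Hochberg adjustment, at 0.01 for RNA and 0.05 for RPF and ratios, with the replicate number as a block. Same-numbered basal and DHPG libraries deviated together, with r from 0.31 to 0.74 in RNA and 0.26 to 0.52 in RPF, against at most 0.47 and 0.29 with another number (RNA replicate 2 correlated more with another number, at 0.47, than with its own, at 0.31); the study corrects for the replicate as a batch. DHPG RNA replicate 5 has no partner and is absorbed by its block. The basal ratio used lengths of the transcript with the longest coding sequence from GENCODE on mm10, with 99.3% of genes matched. Log2 CPM used a prior count of 2. Alternatives used DESeq2 1.42.0, sva 3.50.0 and limma 3.58.1. The fits were tested on simulated data. Of genes given a log2 change of 0.5, 57.8% were recovered in RNA, 86.8% in RPF and 65.5% for the ratio change. Smaller changes were not simulated. For the basal ratio, 90.5% of genes given a log2 change of 1 were recovered, with 16 false calls among 197.

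Members and lists were chosen with earlier results of these data known. Library values are given for the member with the most footprints per kb in each role, for members past a DHPG threshold or else the 3 with the smallest p, and for the 4 highest and 4 lowest basal ratios; of partner genes, the 2 with the smallest p. Cacnb1 to Cacnb3 and other tested members are given by their levels. Sst, Prkcd and Fgf12 were named after their values were seen. Values of 3 members that passed the filter on low counts are not reported here, and they stay in the counts and medians. Replicates are pools of slices from several mice. With the replicate number as a block, the DHPG p-values measure how the DHPG to basal difference varied from pool to pool. Those of the basal ratio measure how the RPF to RNA difference varied from pool to pool. SDs are over libraries. SEs of log2 changes and ratios were derived from the fitted estimate and edgeR's test statistic.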

Additional observations from a re-analysis of the deposited data

Results flagged for a closer look

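Values in 17 named members were screened for a library far from the rest of its group, in 68 groups of 4 or 5 libraries. Such a screen marks about 1 group in 20 by chance (3.4 here), and it marked 3. Cacna1a RPF in DHPG replicate 2 was at 120.7 CPM (1798 counts), above the 99.9 to 105 CPM of the other 4. Cacnb4 RPF in basal replicate 2 was at 105.4 CPM (1730 counts), above 89.6 to 93.4 CPM. Cacna1e RNA in basal replicate 4 was at 639.7 CPM (4531 counts), below 768 to 792 CPM in the other 3.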

How the results depend on the processing

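Members called by DHPG in RNA and in the ratio change stayed at 0 under all alternatives run. In RPF the count was 1 (Scn3b) with no filter on low counts, with ComBat by replicate number followed by DESeq2, and at an adjusted p under 0.1, where 90, 86 and 85 genes were called against 36. Leaving out 1 replicate at a time gave 0 members each time, while the RPF calls over all genes ran from 2 (without replicate 2) to 103 (without replicate 3), with 5 without replicate 1 and 57 without replicate 5. In RNA 1 gene was called, against 34 without replicate 2, 7 with no filter, 3 at an adjusted p under 0.1, 2 with ComBat and 0 with DESeq2, and for the ratio change 0 genes, against 7 without replicate 2 and 1 with no filter. Without the replicate block 0 members were called in RNA, RPF and the ratio change, 0 genes in RPF, and 27 in the basal ratio; the block changed no other call of a member.

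The median basal ratio of the members was -0.79 without the length correction, -1.15 with the longest protein-coding transcript (chosen after seeing the data), -0.86 with no filter, -0.99 in DHPG libraries, and -1.07 to -0.95 leaving out each replicate, the last without replicate 4. All but those without replicates 1, 2 and 3 moved by more than the spread of 0.06 between replicates. Without the length correction Cacna2d3 (0.15) and Cacnb1 (0.13) changed sign without passing the test. Of 192 alternatives of the members named by their DHPG p or by the highest and lowest basal ratios, none reversed, 188 kept their side of the threshold, 3 gained it (Scn3b) and 1 lost it (Cacnb4, 0.08). Outside these, calls in the basal ratio also depended on the length choice. Cacna2d1 gained the threshold under all 3 other choices (0.49 to 0.95). Cacnb1, called at -0.70, lost it with the longest protein-coding transcript as well (-0.19). Cacnb2, called at 0.51, lost it with the longest protein-coding transcript (0.42) and with the mean transcript length (0.09). Low counts limit Cacna2d4, Scn7a and Scn9a (at most 106 per library). The RNA and coding sequence lengths are of GENCODE transcripts, not those the authors counted on.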

Other observations

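Levels of these channels varied with GC content of the coding sequence from library to library in RNA and, with smaller rho in basal libraries, in RPF. Across the 31 members, Spearman's rho between GC content and the deviation of log2 CPM from the group mean was -0.73, 0.71, 0.84 and -0.86 in basal RNA replicates 1 to 4, and across 12858 genes it was -0.48, 0.41, 0.64 and -0.58. In basal RPF the members' values were -0.04, -0.33, -0.08, 0.33 and 0.37 in replicates 1 to 5, and in DHPG RPF 0.23, -0.34, -0.69, 0.51 and 0.10. Across 13135 genes basal RPF values ran from -0.42 to 0.36. Examples in basal RNA were chosen after their values were seen. Hcn2 (63.8% GC) had 361 and 406 CPM in replicates 2 and 3 against 247 and 245 in replicates 1 and 4. Cacna2d1 (43.3% GC) had 247 and 179 CPM in replicates 2 and 3 against 292 and 304 in replicates 1 and 4. These are descriptions across genes that share libraries.

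Spread differed by assay as well. For Cacna1h the SD of log2 CPM between replicates was 0.35 in RNA and 0.14 in RPF, and for Cacna2d2 it was 0.16 and 0.21. The median over all genes tested was 0.22 in RNA and 0.13 in RPF.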
